A study of Gallus gallus with 30 samples.

Results

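The 6 genes described here form the thyroid hormone system as far as it was measured: the carrier transthyretin (TTR), the deiodinases DIO1, DIO2 and DIO3, and the nuclear receptors THRA and THRB. They were found by the gene symbol that the platform annotation gives each probe set, the group of short probes that measures a transcript. The 6 genes had 9 of the 37693 chicken probe sets on the array, and each gene is represented by its probe set with the highest mean log2 signal. TTR, DIO2 and THRB each had a further probe set, which is given beside the first.

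Thyroid hormone leaves the thyroid mostly as thyroxine, travels in blood and cerebrospinal fluid on binding proteins such as transthyretin, and enters cells through membrane transporters. Inside the cell DIO2 removes an iodine from the outer ring and makes the active hormone triiodothyronine, DIO3 removes one from the inner ring and inactivates the hormone, and DIO1 can do both. The active hormone binds THRA or THRB on DNA, where the receptors repress or activate their target genes. A bird embryo receives hormone from the hen through the yolk before its own thyroid is active.

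The samples were wild-type chicken embryos (Gallus gallus) of the Nera line, of mixed sex, taken as whole embryos without yolk and amnion at 15 Hamburger-Hamilton (HH) stages. The HH scale orders chicken embryos by their form. Each stage had 2 replicates labelled biological, each a pool of RNA of several embryos on an Affymetrix Chicken Genome Array, which gives 30 arrays. Stages HH1, HH2, HH4, HH6, HH8 and HH9 came first, followed by HH11, HH14, HH16, HH19 and HH24 and last by HH27, HH32, HH34 and HH38. No treatment or mutant was part of the design. Signals are on the linear scale of the MAS5 algorithm, and every array had the same trimmed mean of 500. A signal was taken as above background where it exceeded the 95th percentile of the array's 689 probe sets for other organisms, which was 25.4 to 47.2. Stage means are geometric means of 2 arrays, and no level of one probe set is set against that of another. Because whole embryos were measured, fewer cells of a type and less RNA per cell cannot be told apart.

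Replicate arrays of a stage correlated at 0.94 to 0.958 across probe sets. The ratio of 3' to 5' actin control signals was 1.54 to 2.01 on the 28 arrays from HH1 to HH34, and 2.48 and 2.99 on the HH38 arrays. The same ratio for GAPDH was 0.993 to 1.16 up to HH34, and 1.17 and 1.07 at HH38.

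**Figure D1:**
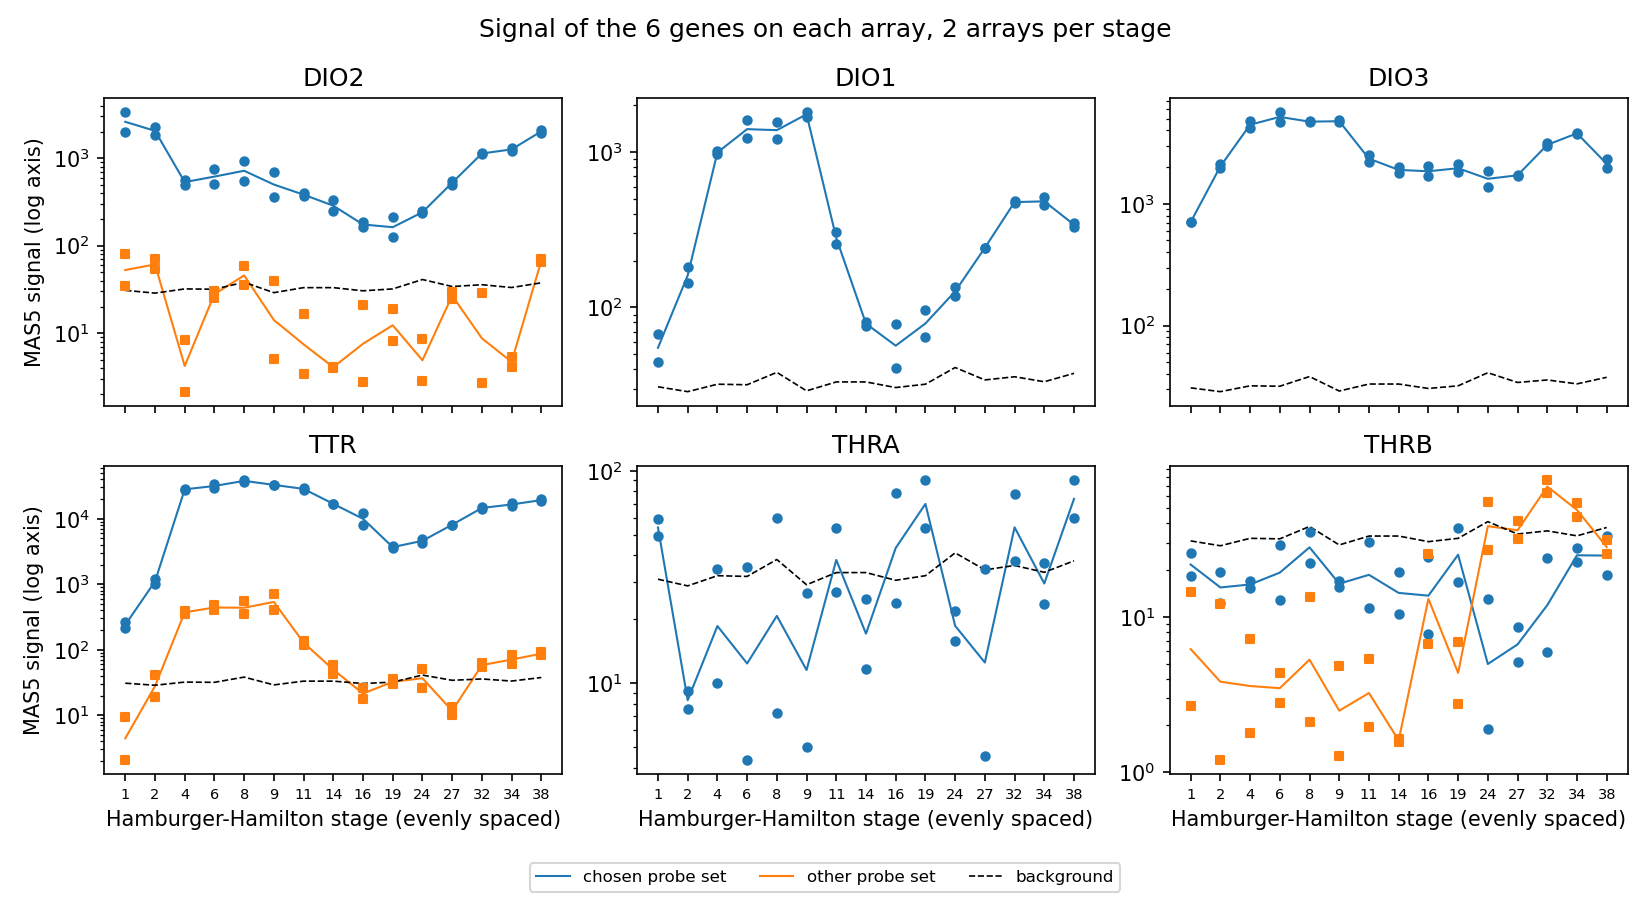
Signal of the 6 genes on a log axis against HH stage, with a point for each array, a line through the stage means, the chosen probe set in blue, any further probe set in orange and the mean background as a dashed line. DIO1, DIO2, DIO3 and TTR lie above background on 30 of 30 arrays, THRA on 14 and the chosen THRB probe set on 2.

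The 3 deiodinases and TTR changed with stage. DIO1, DIO3 and TTR were all high from HH4 to HH9, and DIO2 was not. A linear model of log2 signal with 15 stage means was fitted over all probe sets with limma, and its moderated F test was adjusted by Benjamini-Hochberg over the 29600 probe sets that passed a filter on low signal. The stage effect passed an adjusted p of 0.05 for 4 of the 5 members tested, where 69% of all probe sets passed it. The adjusted p was 1.42e-20 for TTR, 1.27e-14 for DIO1, 8.01e-14 for DIO3 and 4.1e-11 for DIO2. THRA did not pass (0.168), and the chosen THRB probe set was too dim to be tested. Differences between stages are called below where the adjusted p is under 0.05 and the change is at least 2-fold.

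The signal of TTR, a carrier of thyroid hormone and of retinol-binding protein, rose 158-fold from its lowest stage, HH1, to its highest, HH8. It was 215.4 and 267.5 on the HH1 arrays, 1022 and 1188 at HH2, and 27670 and 28550 at HH4. From HH4 to HH11 the 10 arrays lay between 27670 and 39150. It was 16730 and 17060 at HH14, 8145 and 12210 at HH16, and 3522 and 3866 at HH19. The arrays of these last stages do not overlap, and HH19 held the lowest level after HH2. The signal was then 4280 and 4952 at HH24, 8134 and 8066 at HH27, 15080 and 14130 at HH32, 17680 and 15450 at HH34, and 18360 and 20220 at HH38. TTR therefore had an early plateau and a later climb, with HH9 8.91-fold and HH38 5.22-fold above HH19. In the order of the 15 stages only 3 of 14 neighbours overlapped, which were HH9 with HH6, HH11 with HH4, and HH14 with HH34.

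TTR was higher at HH2 than at HH1 by 2.20 ± 0.132 (log2, standard error, adjusted p = 5.2e-11), and at HH4 than at HH2 by a further 4.67 ± 0.132 (8.9e-17). The step from HH16 to HH19 fell by 1.43 on the log2 scale, with a standard error of 0.132 and an adjusted p of 8.54e-07. The steps HH14 minus HH11 (-0.76 ± 0.132, adjusted p = 0.00384), HH16 minus HH14 (-0.76 ± 0.132, 0.0237), HH27 minus HH24 (0.82 ± 0.132, 0.0011) and HH32 minus HH27 (0.85 ± 0.132, 0.000386) passed the p threshold at less than 2-fold. Between HH16 and HH38 the difference was 0.95 ± 0.132 (3.22e-06), just short of 2-fold. Without the second HH16 array it was 1.24, and without the first HH38 array 1.02, and both would be called.

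The further TTR probe set was much dimmer and above background on 21 of 30 arrays. It too was low at HH1 (9.356 and 2.102, both at or below background) and high from HH4 (350.9 and 396.4) to HH9 (410 and 703.2). It parted from the first probe set after that. It fell by 2.06 on the log2 scale from HH9 to HH11 (standard error 0.528, adjusted p = 0.011), where the first probe set differed by -0.20. At HH38 it read 91.06 and 83.12, so that HH9 stood 6.17-fold above HH38 with this probe set and 1.71-fold with the first. The height of the later climb relative to the early plateau thus depends on the probe set, and the fall from HH16 to HH19 was not seen with the further one (0.60, adjusted p = 0.748), which was at or below background on 3 of these 4 arrays.

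DIO2, the enzyme that makes triiodothyronine within cells, was high at both ends of the series and low in the middle. The HH1 arrays read 2012 and 3376, and the HH2 arrays 2296 and 1841. At HH4 the signal was 498.9 and 569.7, and from HH4 to HH11 the 10 arrays lay between 355.7 and 937.7. It was 329.1 and 249.3 at HH14, 184.6 and 165.4 at HH16, and 211.3 and 125.4 at HH19. HH19 was the lowest stage, 16-fold below HH1. The signal was then 246.2 and 236.4 at HH24, 497.9 and 553 at HH27, 1162 and 1105 at HH32, and 1314 and 1210 at HH34. At HH38 it was 1960 and 2099, within the range of the HH1 and HH2 arrays and 12.5-fold above HH19.

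DIO2 fell from HH2 to HH4 by 1.95 on the log2 scale (standard error 0.292, adjusted p = 3.05e-05). It rose at HH27 minus HH24 by 1.12 ± 0.292 (adjusted p = 0.0357) and at HH32 minus HH27 by 1.11 ± 0.292 (0.0274). Each of these rises missed the threshold once any of the 4 arrays of its step was left out, with an adjusted p of up to 0.2 for the first and 0.181 for the second. The replicates of DIO2 lay apart at HH8 (937.7 and 550.7) and HH9 (702.4 and 355.7), and its 6 stages from HH4 to HH11 and HH27 overlapped as neighbours in the order of levels. The further probe set was above background on 9 of 30 arrays. It was above background on both arrays only at HH1, HH2 and HH38. With background in place of the HH34 signal, it was at least 2.05-fold higher at HH38 (69.55 and 65.22) than at HH34. The adjusted p of 0.0369 belongs to the fitted change of 3.84 ± 1.21, which used the HH34 signals below background as they were.

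DIO1, which in adult birds and mammals is the deiodinase of liver and kidney, was high in a window from HH4 to HH9 and low on both sides of it. It was 44.8 and 67.56 at HH1, 180.9 and 142.8 at HH2, and 970.6 and 1018 at HH4. The highest stage was HH9 with 1692 and 1812, and all 8 arrays from HH4 to HH9 lay at 970.6 or above. It then read 306.7 and 255.1 at HH11, 81.17 and 76.18 at HH14, 40.87 and 78.78 at HH16, and 64.36 and 96.61 at HH19. HH9 stood 30.9-fold above HH16, and the ranges of HH14, HH16, HH19 and HH1 overlapped as neighbours. A second, smaller elevation followed, with 118.9 and 135.2 at HH24, 242.4 and 241.4 at HH27, 472 and 481 at HH32, 511.5 and 453.9 at HH34, and 352 and 330.5 at HH38. Every array from HH24 on was above every array from HH14 to HH19, and HH9 was still 5.13-fold above HH38.

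DIO1 rose by 1.55 ± 0.253 from HH1 to HH2 (adjusted p = 5.84e-05) and by 2.63 ± 0.253 from HH2 to HH4 (5.44e-08). It fell by 2.65 from HH9 to HH11 (standard error 0.253, adjusted p = 1.57e-07) and by 1.83 from HH11 to HH14 (standard error 0.253, 0.000328). The late steps HH27 minus HH24 (0.93 ± 0.253, adjusted p = 0.0447) and HH32 minus HH27 (0.98 ± 0.253, 0.0247) passed the p threshold but stayed under 2-fold.

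DIO3, the enzyme that inactivates thyroid hormone, was well above background on every array. It was 703.6 and 709.9 at HH1, 1958 and 2103 at HH2, and 4188 and 4750 at HH4. HH1 was its lowest stage, and from HH4 to HH9 the 8 arrays lay between 4188 and 5674. It was 2493 and 2212 at HH11, and the 10 arrays from HH14 to HH27 ranged from 1371 to 2107 without order between the stages. The signal was 3131 and 2971 at HH32, 3738 and 3843 at HH34, and 1955 and 2316 at HH38. All 4 arrays at HH32 and HH34 lay above every array from HH11 to HH27 and above both HH38 arrays.

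DIO3 rose by 1.52 ± 0.127 from HH1 to HH2 (adjusted p = 6.88e-09) and by 1.14 ± 0.127 from HH2 to HH4 (5.35e-07). It fell by 1.02 from HH9 to HH11 (standard error 0.127, adjusted p = 6.27e-06). This change was below 2-fold without the second HH9 array (-0.99) or the second HH11 array (-0.93). The later differences, HH32 minus HH27 (0.83 ± 0.127, 0.000327) and HH38 minus HH34 (-0.83 ± 0.127, 9.64e-05), passed the p threshold at less than 2-fold.

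The receptors were close to the background. THRA, the receptor that is expressed early and widely in the chicken, was above background on 14 of 30 arrays and on both arrays only at HH1 (59.13 and 49.37), HH19 (53.82 and 90.47), HH32 (37.71 and 77.71) and HH38 (60 and 90.49). Its replicates were often far apart, as at HH8 with 7.209 and 59.6, and all 14 neighbours in its order of levels overlapped. The median SD between replicates over the stages was 0.738 on the log2 scale for THRA, against 0.095 for TTR and 0.103 for DIO3. No THRA difference was called in any comparison made here.

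THRB, the receptor with more restricted expression in brain, eye and ear, was measured by a pair of dim probe sets. The chosen one ranged from 1.898 to 37.61 and exceeded background on 2 of 30 arrays, the first at HH8 (35.38) and the first at HH19 (37.61). The further one exceeded background on 6 arrays, all between HH24 and HH34. It read 62.63 and 76.22 at HH32 and 54.52 and 43.78 at HH34, and was above background on 1 of 2 arrays at HH24 (54.58) and at HH27 (41.39). From HH1 to HH19 it was at or below background on every array, and at HH38 it read 25.23 and 31.48, also below background. None of its steps was called. Against HH1 it was called only at HH32, at least 2.24-fold higher. It passed the low-signal filter on the arrays where it is high. The call is therefore no independent support for this rise, and no p is given for it.

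**Figure D2:**
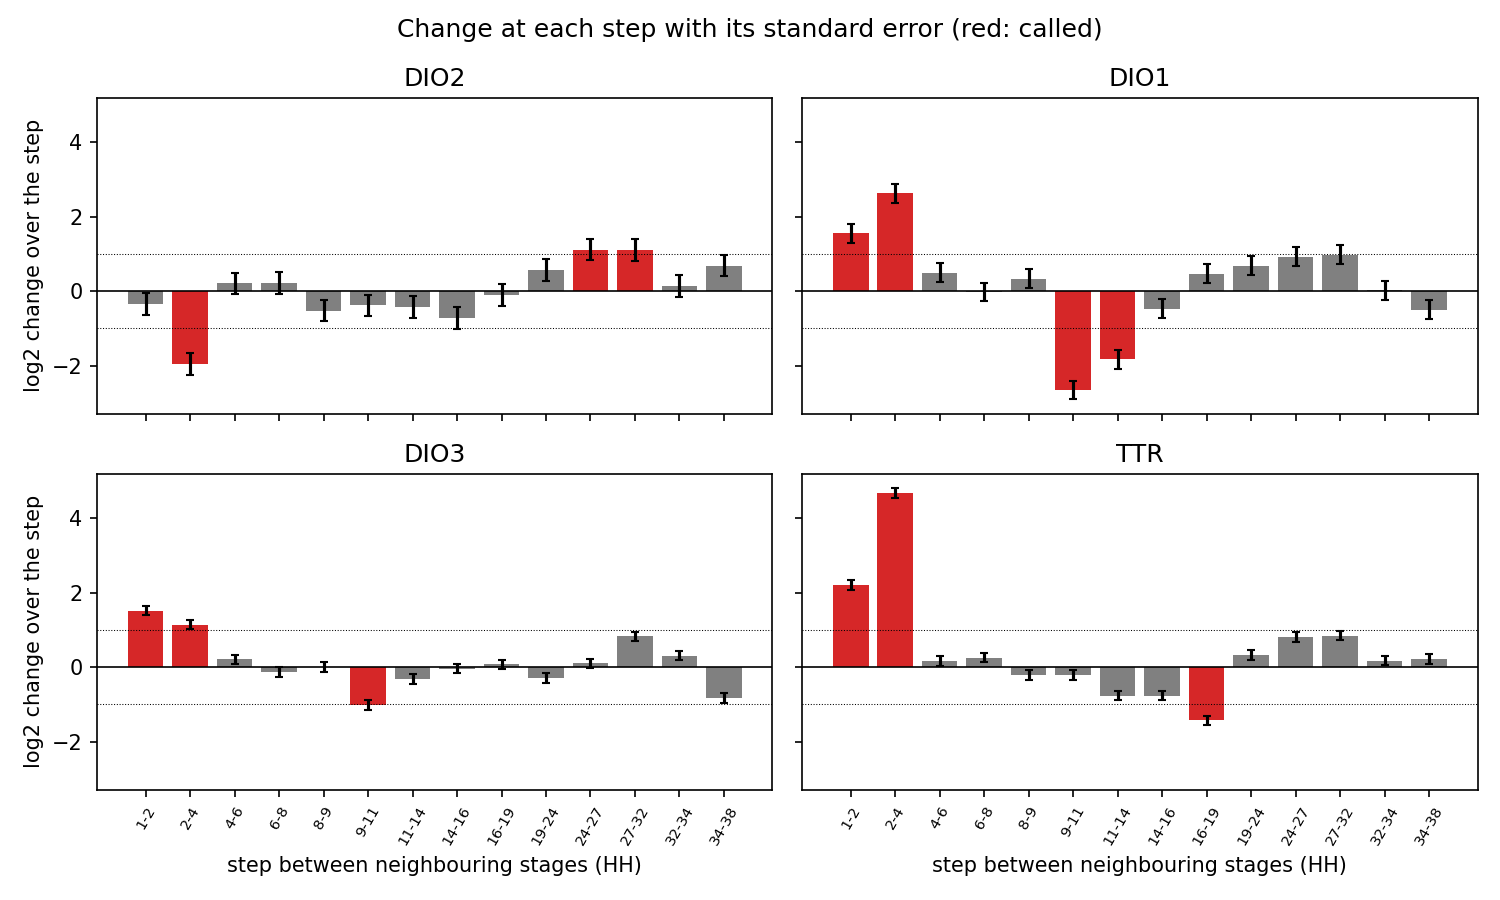
Log2 change of DIO2, DIO1, DIO3 and TTR at each of the 14 steps between neighbouring stages, with the standard error of the fit as whiskers, called changes in red and dotted lines at a 2-fold change. With THRA, which is not drawn and had none, 13 of 70 member steps were called, 8 higher and 5 lower. Of these 13, 7 lie at the steps to HH2 and to HH4, where the most probe sets of the whole array were called too (10.8% and 8.09%).

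The first 2 steps of the series held most of the called member steps, and they also had the most calls over all probe sets. The 5 members tested over 14 steps gave 70 differences, of which 8 were called higher and 5 lower. At HH2 minus HH1, 3 members were called higher (TTR, DIO1 and DIO3), and 10.8% of all probe sets were called in either direction, 5.43% higher. At HH4 minus HH2 the same 3 were called higher and DIO2 lower, against 8.09% of all probe sets (6.24% higher and 1.85% lower). No member was called from HH4 to HH9, where 0.324%, 0.189% and 0.176% of all probe sets were called at the 3 steps. DIO1 and DIO3 were called lower at HH11 minus HH9, where 4.76% of all probe sets were called and 2.56% were lower. DIO1 was called lower at HH14 minus HH11 (0.463% of all, 0.321% lower) and TTR lower at HH19 minus HH16 (0.872% of all, 0.426% lower). DIO2 was called higher at HH27 minus HH24 (0.922% of all, 0.753% higher) and at HH32 minus HH27 (1.02% of all, 0.767% higher). None was called at HH16 minus HH14 (0.0709% of all), HH24 minus HH19 (0.757%) and HH34 minus HH32 (0.0608%). At HH38 minus HH34, where 3.8% of all probe sets were called, no member was, and DIO2 differed by 0.69 ± 0.292 (adjusted p = 0.142).

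The comparison of HH16 with HH1 called 3 of the 5 tested members, against 24.8% of all probe sets. TTR was 41.6-fold higher at HH16 (5.38 ± 0.132, adjusted p = 1.77e-18) and DIO3 2.62-fold higher (1.39 ± 0.127, 4.68e-09). DIO2 was 14.9-fold lower (-3.90 ± 0.292, 1.75e-10). DIO1 was at 0.04 ± 0.253 (0.915), with its early window lying between these stages, and THRA was at -0.32 ± 1.11 (0.856). From HH16 to HH38, 2 of the 5 were called, against 20.1% of all. DIO2 rose 11.6-fold (3.54 ± 0.292, adjusted p = 1.25e-09) and DIO1 6.01-fold (2.59 ± 0.253, 1.8e-08). DIO3 differed by 0.20 ± 0.127 (0.23) and THRA by 0.77 ± 1.11 (0.642).

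Set against HH1 alone, 51 of the 70 member differences were called, and these comparisons share the HH1 arrays. Of all probe sets, 10.8% were called at HH2, 18.4% at HH4, 19.3% at HH6, 20.3% at HH8, 21.2% at HH9, 23.6% at HH11, 24.5% at HH14 and 24.8% at HH16. The share was 27.6% at HH19 and 30.6% at HH24, then 32.2% at HH27 and 35.7% at HH32, and in the end 36% at HH34 and 38.7% at HH38. TTR and DIO3 were higher than at HH1 at all 14 later stages. DIO1 was higher at 11 of 14, the exceptions being HH14, HH16 and HH19. DIO2 was lower at 12 of 14, the exceptions being HH2 and HH38, where the difference was -0.36 ± 0.292 (adjusted p = 0.313). Markers of the oocyte, 5 of 7 of which are on the array, had a summed signal of 3019 to 4870 at HH1, 1414 to 1819 at HH2 and 622.6 to 816.1 at HH4. The fall of this sum rests mostly on DDX4, with means of 3065, 768.6 and 200.7, whereas DAZL had 571.9, 687.9 and 363.5 and ZP3 101.2, 80.86 and 105.2. Of these 5 markers 1 was at or below background on both HH1 arrays. Their part in the fall of DIO2 from HH2 to HH4 was not tested.

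**Figure D3:**
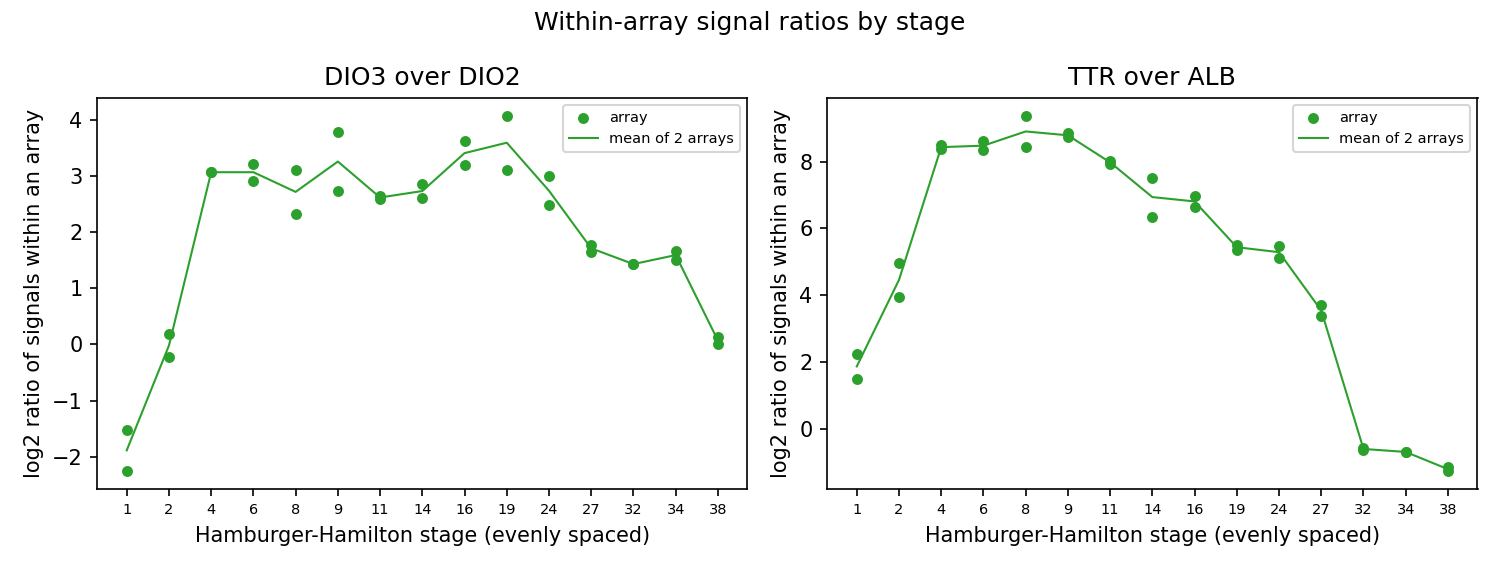
Log2 ratio of DIO3 to DIO2 (left) and of TTR to ALB (right) within each array against HH stage, with a point for each array and a line through the stage means. The DIO3 to DIO2 ratio is -1.88 at HH1, 3.40 at HH16 and 0.07 at HH38, and the TTR to ALB ratio is 6.80 at HH16 and -1.21 at HH38.

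DIO3 and DIO2 act in opposite directions on the hormone, and their signals changed unequally. The log2 ratio of DIO3 to DIO2 signal was -1.52 and -2.25 on the HH1 arrays, -0.23 and 0.19 at HH2, and 3.07 and 3.06 at HH4. It was 3.19 and 3.62 at HH16, 3.11 and 4.07 at HH19, 2.48 and 2.99 at HH24, and 1.77 and 1.65 at HH27. The arrays read 1.51 and 1.67 at HH34, and 0 and 0.14 at HH38. The ratio thus climbed in the first stages, stayed at 2.32 or above from HH4 to HH24 and was lower from HH27 on. Only its change has a meaning here, since probe sets differ in brightness for the same amount of RNA. The 3 pairs compared were fitted as further rows of the table, without a variance trend, and adjusted over 29603 rows. Of the 9 pair differences 5 were called, against 24.7% (HH16 minus HH1), 19.9% (HH38 minus HH16) and 3.77% (HH38 minus HH34) of all rows. The DIO3 to DIO2 ratio rose by 5.29 ± 0.361 from HH1 to HH16 (adjusted p = 3.73e-09). It fell by 3.33 from HH16 to HH38 (standard error 0.361, 1.2e-06) and by 1.52 from HH34 to HH38 (standard error 0.361, 0.012). The last change missed the threshold once any of its 4 arrays was left out (adjusted p = 0.0516 to 0.0801). With a variance trend, which places a ratio among dim probe sets because its own mean is low, none of the 3 changes passed (adjusted p = 0.0606, 0.263 and 0.764).

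TTR and albumin (ALB), the other plasma carrier of thyroid hormone on the array and a product of liver, changed unequally over the series. ALB lay between 32.58 and 205.2 on every array from HH1 to HH24. It was 779.2 and 621 at HH27, 22430 and 22010 at HH32, and 41010 and 48310 at HH38. TTR was therefore high from HH4 to HH11 while ALB was not, and both were high from HH32. The log2 ratio of TTR to ALB rose by 4.94 ± 0.373 from HH1 to HH16 (adjusted p = 1.24e-08) and fell by 8.01 from HH16 to HH38 (standard error 0.373, 9.7e-11). From HH34 to HH38 it differed by -0.51 ± 0.373 (0.462). The ratio of THRB to THRA rested on a THRB probe set at or below background on 4 of 4 arrays in each comparison, and none of its changes was called (adjusted p = 0.676 to 0.971).

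**Figure D4:**
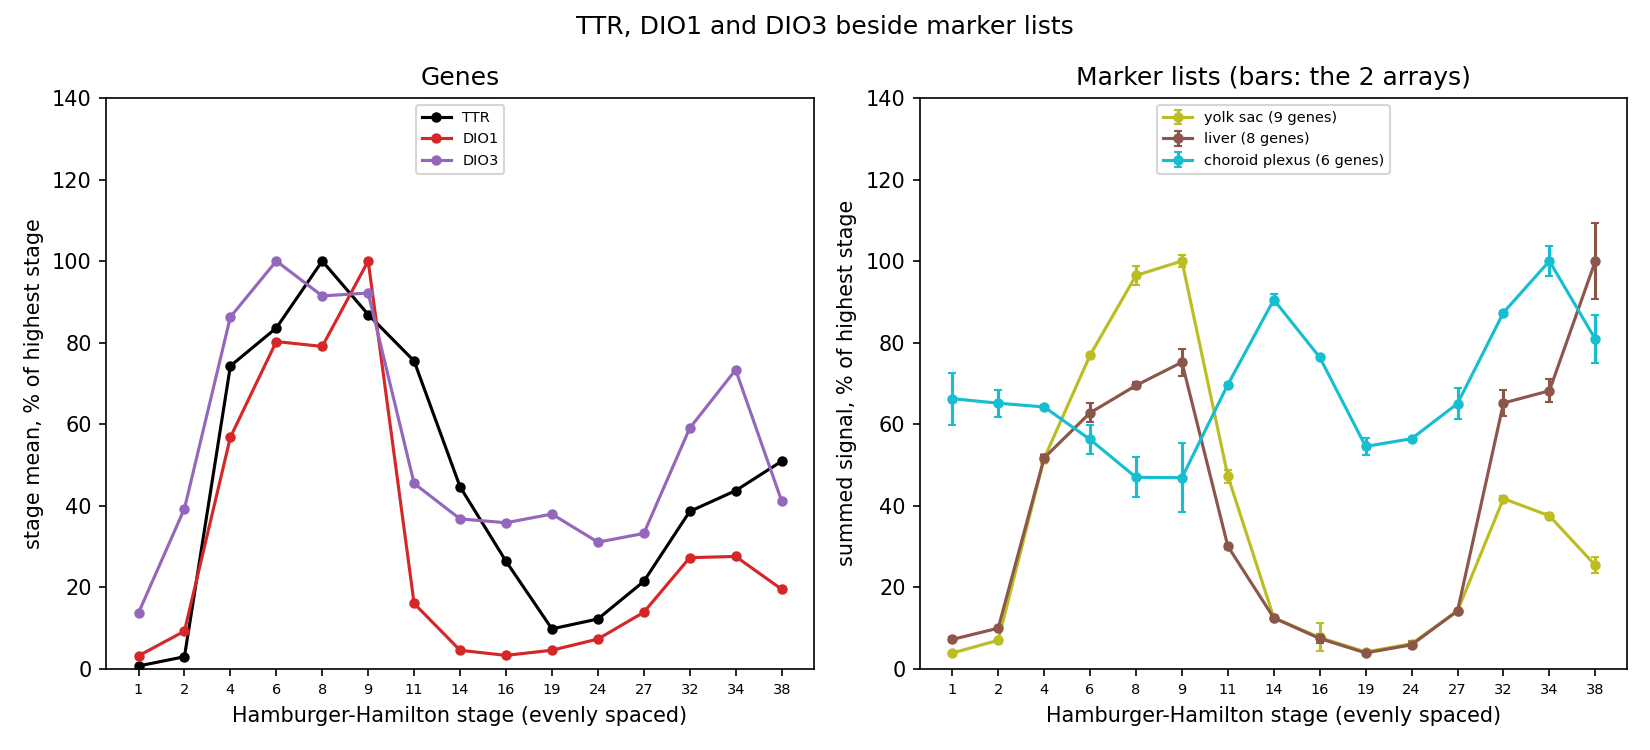
Stage mean signal of TTR, DIO1 and DIO3 (left) and summed signal of 3 lists of marker genes (right), each as a percentage of its highest stage, against HH stage. Bars on the right span the 2 arrays, and the left shows stage means only. TTR is highest at HH8 and DIO1 at HH9, and the summed yolk sac markers, 40360 to 41650 at HH9, are 1538 to 1800 at HH19.

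The labels name yolk and amnion as removed and do not name the yolk sac, whose endoderm makes TTR and apolipoproteins. All 9 yolk sac markers listed are on the array. Their summed signal was 1446 to 1684 at HH1, 2819 to 2874 at HH2, 20680 to 21590 at HH4 and 40360 to 41650 at HH9. It was 18690 to 20020 at HH11, 4924 to 5321 at HH14, 1538 to 1800 at HH19 and 15120 to 15620 at HH34. Above background on both arrays were 3 of the 9 at HH1, 8 at HH9, 4 at HH19 and 8 at HH34. APOB, the main protein of lipoproteins secreted from yolk sac and liver, was below background at HH2 and at a mean of 10610 at HH4, 25600 at HH9 and 161.5 at HH19. RBP4, the retinol carrier that binds TTR, did not exceed background on either array of any stage from HH1 to HH19. AFP was above background on both arrays only at HH9 (mean 88.78), HH11 (711.6), HH14 (562.6), HH16 (178.6) and HH38 (279.8). The signals of TTR, DIO1 and DIO3 between HH4 and HH9 were high in the same arrays as the summed markers. With the chosen probe sets, their falls after HH9 were unequal. From HH9 to HH14 the mean went from 32890 to 16890 for TTR, from 4764 to 1899 for DIO3 and from 1751 to 78.64 for DIO1. The further TTR probe set went from 537 to 49.68 over these stages, so the size of the TTR fall depends on the probe set. The part of the markers in the results was not tested.

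Of 10 liver markers 8 are on the array. Their summed signal was 6810 to 7975 at HH1, 74270 to 81140 at HH9, 3813 to 4139 at HH19, 64160 to 70560 at HH32 and 93650 to 113100 at HH38. Of these 8 markers, 5 were above background on both arrays at HH1, 7 from HH4 to HH34 and 8 at HH38. The late climbs of TTR, DIO1 and DIO2 thus fell in the same arrays as a climb of liver markers. So did the higher DIO3 signals at HH32 and HH34. The liver list was high at HH9 too. The yolk sac sum also climbed late, from 5649 to 5987 at HH27 up to 16820 to 17380 at HH32. This rise rests mostly on APOB, with means of 2641 and 8070, and RBP4, with 1177 and 6847. At the same stages CUBN had means of 378.7 and 451.8, LRP2 226.6 and 220, and SOAT1 1144 and 1091. From HH34 to HH38 the mean went from 481.8 to 341.1 for DIO1 and from 3790 to 2128 for DIO3, while the liver sum was highest at HH38. The liver markers did not move alike, since ALB had means of 74.57 at HH9 and 44510 at HH38, TF 15740 and 25440, and APOA1 30050 and 5368. Of 8 markers of the choroid plexus, the brain epithelium that secretes TTR into cerebrospinal fluid, 6 are on the array. Their summed signal was 4408 to 6353 at HH9, 10240 to 10550 at HH14, 6024 to 6497 at HH19 and 11050 to 11920 at HH34, and 8601 to 9962 at HH38. Its members did not move together, since MSX1 had means of 2120 at HH9 and 426.4 at HH34, OTX2 2534 and 7372, and AQP1 228.3 and 3444. The part of these lists in the results was not tested.

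**Figure D5:**
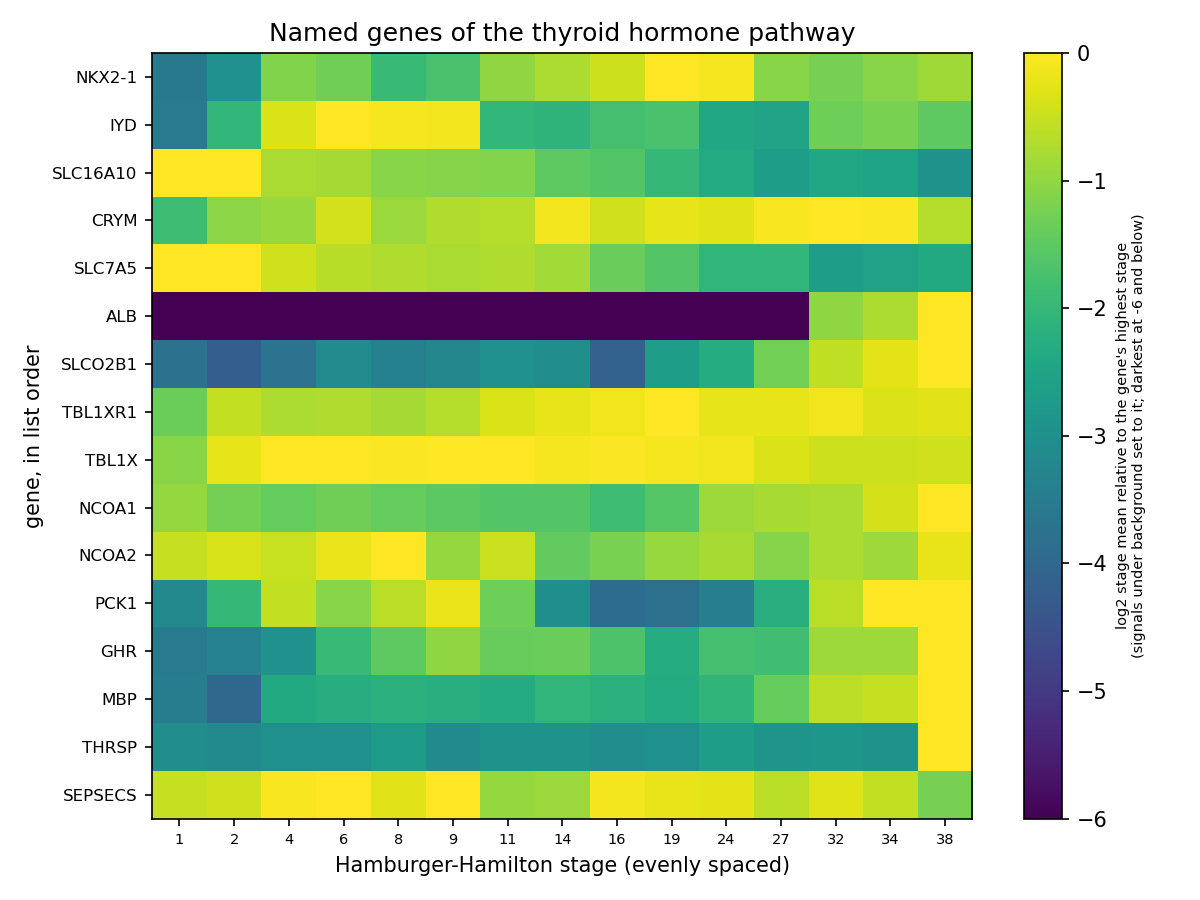
Log2 stage mean signal of the named genes of the thyroid hormone pathway, relative to each gene's highest stage, by HH stage, with signals under background set to it (colour bar). THRSP is at or below background on both arrays at every stage but HH38, where its mean is 254.4, and SLC16A10 goes from 5270 at HH1 to 682 at HH38.

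Beyond the 6 members, 69 entries in 6 lists of thyroid hormone genes were examined, of which 50 are on the array and 45 were tested. At HH16 minus HH1, 10 were called higher and 3 lower, with a median change of 0.38 against 0.04 over all probe sets, of which 24.8% were called (15% up and 9.79% down). At HH38 minus HH16, 9 were higher and 3 lower, with a median of 0.12 against 0.05, set against calls for 20.1% of all probe sets (12.2% up and 7.88% down). At HH38 minus HH34, 1 was higher and 0 lower, where 3.8% of all probe sets were called, with a median of -0.01 for both. With the mean of each gene's probe sets in place of the brightest one, the 3 counts of 13, 12 and 1 became 6, 6 and 2. The low-signal filter was applied anew to these means. The number tested can therefore differ from 45, and the shares above do not apply to these 3 counts. The counts with the brightest probe set are read against the shares above in each list that follows.

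Among the genes of thyroid development and hormone synthesis, 2 of 7 tested were higher at HH16 than at HH1 and none changed by the call from HH16 to HH38. NKX2-1, a transcription factor of thyroid, lung and forebrain, went from 41.79 to 362.1 (3.12 ± 0.447, adjusted p = 4.11e-06). IYD, which recovers iodide from iodotyrosines, was at least 2.28-fold higher at HH16 than at HH1 (adjusted p = 0.0305), where 1 of 2 arrays was below background. The IYD call was lost without the first HH1 array (log2 change 0.31) or the second HH16 array (1.45). It was also lost without a variance trend (adjusted p = 0.0587), with signals below background set to it (0.07), and with the mean of its probe sets (0.184). Its mean was 412 at HH6, 383.5 at HH9 and 100.3 at HH11. Of 5 tested genes of the pituitary and hypothalamus none was called in the 3 comparisons. TSHB, the beta chain of thyroid-stimulating hormone, had means of 30.4 at HH16 and 33.03 at HH38, with 1 of 2 arrays at or below background at each.

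Of 6 tested carriers and transporters, 1 was higher and 2 were lower at HH16 than at HH1, and 2 rose and 2 fell from HH16 to HH38. SLC16A10, in mammals a transporter of aromatic amino acids and thyroid hormone, fell in both intervals, from 5270 to 1736 to 682 (-1.60 ± 0.115, adjusted p = 8.48e-11, then -1.35 ± 0.115, 2.07e-09). SLC7A5, a transporter of large neutral amino acids that also carries the hormone, went from 2541 to 996.9 to 498 (-1.35 ± 0.121, 3.3e-09, then 2-fold lower, 4.46e-07). CRYM, which binds the hormone in the cytosol of mammalian cells, rose from 115 at HH1 to 306.5 at HH16 (1.41 ± 0.203, 4.05e-06). SLCO2B1, an organic anion transporter, was at least 11.6-fold higher at HH38 than at HH16 (2.26e-06), where 1 of 2 arrays was below background. The second change of SLC7A5 was below 2-fold without the second HH16 array (-0.89) or the first HH38 array (-0.92). With the mean of their probe sets, SLC7A5 (-0.38, adjusted p = 0.441, then -0.84, 0.0772) and the second change of SLC16A10 (-0.62, 0.0502) missed the threshold, and CRYM was below 2-fold (0.90). These transporters were thus not of one direction.

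Of 12 tested partners of the receptors, 2 were higher at HH16 than at HH1 and another 2 at HH38 than at HH16, and none was lower. TBL1XR1 and TBL1X, subunits of the corepressor complex, rose by 1.20 ± 0.14 (adjusted p = 1.93e-07) and 1.04 ± 0.0813 (3.57e-10) in the first interval. The coactivators NCOA1 and NCOA2 rose by 1.87 ± 0.255 (2.61e-06) and 1.01 ± 0.37 (0.0337) in the second. In the first interval NCOA1 had fallen by less than 2-fold (-0.92 ± 0.255, adjusted p = 0.00502). That fall was called after 75th percentile scaling (-1.08) and after quantile normalization (-1.06). Without the first HH1 array TBL1XR1 (0.88) and TBL1X (0.90) were below 2-fold, as was TBL1X after 75th percentile scaling (0.88). NCOA2 was below 2-fold without the first HH16 array (0.82) or the second HH38 array (0.62). It missed the threshold after 75th percentile scaling (adjusted p = 0.072) and after quantile normalization (0.138). With the mean of their probe sets NCOA1 missed the threshold (1.00, adjusted p = 0.266) and TBL1X was below 2-fold (0.71). RXRA, which pairs with the receptors on DNA, had means of 50.76 at HH1, 76.24 at HH16 and 75.7 at HH38 and was not called.

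Among 10 tested genes known to respond to thyroid hormone in some tissue, 5 were higher and 1 lower at HH16 than at HH1, and 5 rose and 0 fell from HH16 to HH38. The median change of the list was 0.47 and 1.05. MBP, a myelin protein, went from 85 to 205.6 to 926.8, and its second rise was 2.17 ± 0.233 (adjusted p = 7.69e-08). GHR, the growth hormone receptor, went from 55.18 to 196.2 to 631.7 (1.83 ± 0.298, 2.22e-05, then 1.69 ± 0.298, 7.28e-05). With the mean of their probe sets the second rise of GHR (1.32, adjusted p = 0.129) and the first of MBP (0.89, 0.0796) missed the threshold. PCK1, an enzyme of glucose synthesis in liver and kidney, was below background on both HH16 arrays and at least 14.6-fold higher at HH38 (7.14e-08). PCK1 was the gene called lower from HH1 to HH16, a call lost with signals below background set to it (-0.69, adjusted p = 0.158). THRSP, a lipogenic protein of liver named for its response to the hormone, did not exceed background on any array of the 14 stages up to HH34. It was 221.8 and 291.8 at HH38, at least 7.73-fold higher than at HH34. THRSP passed the low-signal filter only through these HH38 arrays, so it could be tested only because it is high there, and no p is given for it. It is the gene counted at HH38 minus HH34 above and one of the 5 counted from HH16 to HH38. KLF9, a transcription factor induced by the hormone in brain, had means of 95.08 at HH16 and 66.62 at HH38 and was not called (-0.51 ± 0.281, 0.162). The HH38 arrays are also those with the highest actin 3' to 5' ratios and the highest summed liver markers, and their part in these changes was not tested.

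Deiodinases carry selenocysteine, and 5 genes of selenoprotein synthesis were tested. None was called between HH1 and HH16. SEPSECS, which forms selenocysteine on its transfer RNA, fell from 270.2 at HH16 to 122.6 at HH38 (-1.14 ± 0.258, adjusted p = 0.001), and by less than 2-fold without the first HH16 array (-0.80) or the first HH38 array (-0.89). SECISBP2, which directs selenocysteine insertion, had means of 779.3, 746.6 and 645.7 at HH1, HH16 and HH38 and was not called.

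The members were also set beside all 12102 named genes by Pearson correlation of the 15 stage means, as a description of these arrays. The courses of DIO1 and DIO3 correlated at 0.89, DIO3 and TTR at 0.82, and DIO1 and TTR at 0.70. DIO2 stood apart from the other 3 (0.21 with DIO1, -0.08 with DIO3 and -0.32 with TTR). The genes closest to DIO1 were C10orf90 (0.982), CALML4 (0.98), TM6SF2 (0.976), SULT1E1 (0.965), a sulfotransferase, and UGT2A1 (0.963), a glucuronosyltransferase. Closest to DIO2 was VLDLR (0.987), the receptor through which the chicken oocyte takes up yolk lipoproteins, followed by VDAC1 (0.955), NPTX2 (0.945), SBSPON (0.922) and IQCB1 (0.911). The gene closest to DIO3 was IYD (0.964), described above with the synthesis genes, followed by AMT (0.956), CYP3A4 (0.951), NIT1 (0.946) and SWAP70 (0.942). TTR lay closest to FGB (0.971), the fibrinogen beta chain, LOC421740 (0.966), TNFRSF14 (0.959), SH3BGR (0.959) and YIPF1 (0.955). A correlation above 0.9 was reached by 58 genes for DIO1, 47 for TTR, 35 for DIO3 and 11 for DIO2.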

How the data were processed

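Total RNA of 30 pools of chicken embryos (15 stages with 2 pools each) was extracted with a lipid tissue kit and labelled with biotin from the 3' end, per the labels. Each deposited intensity is a linear signal of the MAS5 algorithm, which the submitters' processing notes name. The software version and settings and the embryos per pool were not stated in any source used here. On every array the mean after trimming 2% at each end was 500. Raw probe intensities are not analysed here, and the number of arrays limits the precision.

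Genes were named by the platform annotation. A single symbol was given for 27166 chicken probe sets, several for 177 and none for 10350, and all 6 members matched a RefSeq symbol by gene identifier. Log2 signals of the 29600 chicken probe sets that were at or above their array's 40th percentile on 2 or more arrays were fitted with 15 stage means by lmFit of limma 3.58.1 under R 4.3.3. Variances were moderated by eBayes with a trend on mean signal, over 15 residual degrees of freedom. Adjusted p-values are Benjamini-Hochberg, within each contrast and over all probe sets. The fit was tested on simulated data. A fold against a signal at or below background is a lower bound, computed from the background level, which is itself a rule of this work. The adjusted p beside such a fold is that of the fitted difference of the signals as deposited. Figures were drawn with matplotlib 3.10.9 in Python 3.11.15.

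Members, gene lists and tests were chosen with earlier results of these data known. Genes other than the members were named when they were among the 3 largest called changes of a list in a comparison, or among the 5 genes whose stage means correlated best with a member. APOB, RBP4, TSHB, RXRA, KLF9, SECISBP2 and the probe set disagreements were singled out after their values were seen. So were the markers AFP, CUBN, LRP2, SOAT1, DDX4, DAZL, ZP3, TF, APOA1, MSX1, OTX2 and AQP1. Listed genes without a probe set under their symbol are not analysed here. Replicate numbers were checked for pairing over 105 pairs of stages. The deviations of same-numbered arrays correlated at -0.031 to 0.044, with 0 pairs over 0.1, so that the numbers do not pair the arrays.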

Additional observations from a re-analysis of the deposited data

How the results depend on the processing

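Counts of called members were 4 for the stage effect, 3 for HH16 minus HH1, 2 for HH38 minus HH16, 13 for the steps, 51 against HH1 and 5 for the pairs. Leaving out each array in turn gave 4 to 4, 3 to 3, 2 to 3, 11 to 14, 49 to 52 and 4 to 5. With the replicate number as a block (replicate block) the counts were 4, 3, 2, 13, 51 and 5. Of 53 such counts under other scaling, filter, weighting, background and probe set choices, 52 stayed within 1.5 times, and the exception was the pairs with a variance trend, where 2 were called. Single genes and pairs gave 277 values under these choices, of which 262 stayed on their side of the threshold, 9 lost the call, 3 gained it and 3 reversed. Here and for the pathway genes below, a reversal was counted only where the difference was called in one of the settings compared. A change of sign in a difference called in neither was not counted. The reversed values were DIO2 at HH32 minus HH27, with -0.25 for the mean of its probe sets and -1.62 for its further probe set, and TTR at HH19 minus HH16 with 0.60 for its further probe set. The further probe sets of TTR, THRB and DIO2 were an alternative chosen after seeing the data. DIO2 at HH16 minus HH1 was -2.80 with its further probe set (adjusted p = 0.0664). Without a variance trend the DIO2 rises to HH27 and HH32 missed the threshold (adjusted p = 0.0987 and 0.0826), and the cause was not tested. TTR at HH38 minus HH16 was 1.01 after quantile normalization and 1.49 for the mean of its probe sets, and both were called. Called genes of the pathway lists numbered 13, 12 and 1 at HH16 minus HH1, HH38 minus HH16 and HH38 minus HH34. With the mean of each gene's probe sets, a setting with its own low-signal filter, they numbered 6, 6 and 2. In that setting SLC7A5, SLC16A10, CRYM, GHR, MBP, NCOA1, IYD and TBL1X each lost a call. Leaving out each array gave 13 to 15, 10 to 12 and 0 to 1. Of 318 values of named pathway genes under other choices, 15 lost the call, 2 gained it and 0 reversed. Among these, PCK1 at HH16 minus HH1 missed the threshold with signals below background set to it (-0.69, adjusted p = 0.158). Scaling to the 75th percentile moved the median change of all probe sets from 0.041 to -0.116 (HH16 minus HH1) and from 0.046 to -0.119 (HH38 minus HH16), and quantile normalization moved the latter to -0.15. No called member reversed under either. Counts over all probe sets moved by more than 1.5 times in 14 of 119 values, all at steps between neighbouring stages. For example, the 18 probe sets called at HH34 minus HH32 became 73 with array weights and 9 without the variance trend, and the 302 at HH32 minus HH27 became 554 with array weights. Leaving out 1 array moved 19 of 510 such counts by more than 1.5 times, from 273 to between 124 (without the first HH24 array) and 593 (without the second) at HH27 minus HH24. The ranges were 55 to 211 at HH6 minus HH4, 21 to 165 at HH8 minus HH6, 45 to 187 at HH9 minus HH8, 19 to 65 at HH16 minus HH14, 10 to 35 at HH34 minus HH32, 85 to 163 at HH14 minus HH11 and 170 to 274 at HH19 minus HH16, so the shares of all probe sets beside the calls at these steps are rough. THRA and the chosen THRB probe set lie near background, which limits what could be detected for them.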
